A study of Mus musculus with 13 samples.

Results

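Glycolysis and the pentose phosphate pathway were examined through 35 genes in LPS-activated bone marrow-derived macrophages (BMDMs) with and without ATP citrate lyase (Acly). The 35 genes make up a chosen list of glucose and lactate transporters, glycolytic enzymes, pentose phosphate enzymes and factors that set the flux between them. Each was represented by the RefSeq transcript with the highest total count among those of its symbol. All 35 passed the filter on low counts, out of 11904 genes tested and 24445 genes with a symbol in the count table. The BMDMs came from female mice on a C57Bl/6J background. In AclyM-KO mice, Cre expressed from the myeloid gene Lyz2 removes a loxP-flanked exon of Acly, so that deletion depends on Lyz2 being active and the cultures may keep cells that were not recombined. Control mice (AclyM-WT in the labels, Acly fl/fl in the methods) carry the unrecombined allele. All cultures were grown in medium conditioned by L929 fibroblasts and all received lipopolysaccharide (LPS), the cell wall product of Gram-negative bacteria that Toll-like receptors sense, for 3 h or 24 h. Unstimulated cultures were not analysed here, so no value below is a response to LPS against rest. Each of the 4 genotype-by-time groups was analysed with 3 libraries, 12 in all. The ages of the donor mice are not given in the sources used here, nor is it stated whether libraries of 1 group came from separate animals. If they did not, p-values measure only the spread between these samples.

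Glycolysis turns glucose into pyruvate. Hexokinases trap glucose as glucose 6-phosphate, phosphofructokinase makes the committed step, and the later enzymes from aldolase to pyruvate kinase recover ATP and NADH. The pentose phosphate pathway branches off at glucose 6-phosphate, where glucose 6-phosphate dehydrogenase and 6-phosphogluconate dehydrogenase make NADPH, and a non-oxidative arm with transketolase and transaldolase returns sugars to glycolysis. Activated macrophages are known for high glycolytic flux and lactate export, for which the transcription factor HIF-1α, encoded by Hif1a, is an important driver. Acly sits downstream, where citrate made from pyruvate leaves the mitochondria and is cleaved to acetyl-CoA.

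The table holds raw tag counts per transcript. Total counts were 21274102 to 59577343 in the 12 libraries, which put 1 count at 0.0153 to 0.0512 CPM (counts per 1000000 summed counts, with TMM library sizes). A 13th library, control 24 h replicate 1, held 34467 counts and was left out of every comparison. Acly was at 105, 107 and 106 CPM in the control and 37.7, 46.2 and 41.5 CPM in the AclyM-KO libraries after 3 h LPS, and at 113, 109 and 108 against 30.1, 30.5 and 29.1 CPM after 24 h. The genotypes were apart in every library, with log2 fold changes of -1.34 ± 0.06 (SE, adjusted p = 6.41e-16, edgeR quasi-likelihood test) and -1.88 ± 0.06 (adjusted p = 4.81e-20). All 8 macrophage markers passed the filter. Their summed level was 9984 to 10080 CPM in control and 6915 to 7852 CPM in AclyM-KO libraries after 3 h, and 6031 to 6333 against 4523 to 4627 CPM after 24 h, but without Lyz2, whose locus drives the Cre, the ranges were 4716 to 4860 against 4643 to 4908 CPM and 3635 to 3812 against 3579 to 3767 CPM. Of the 7 markers other than Lyz2, 1 was higher and 3 lower in AclyM-KO cells at 3 h and 1 was lower at 24 h, and their part in the results below was not tested. Markers of neutrophils summed to 11.9 to 15.3 CPM at 3 h and 3.44 to 4.70 CPM at 24 h, with 2 of 10 at 0 in every library, and the summed markers of 6 further cell types stayed between 0 and 2.69 CPM in every library.

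The pathway was well expressed. The median member had a mean of 28.9 CPM over the 12 libraries, against 11.3 CPM for the median gene tested. Added up, the 35 members reached 2865 to 3007 CPM in control and 3122 to 3254 CPM in AclyM-KO libraries after 3 h, so the genotypes did not overlap. After 24 h, control libraries held 3660 to 3709 CPM and AclyM-KO libraries 3677 to 3729 CPM, and the genotypes overlapped. The 24 h libraries lay above all 3 h libraries in both genotypes. Per kilobase of transcript, the highest levels in control cells after 3 h were those of the aldolase Aldoa with 181 CPM per kb, the hexose transporter Slc2a6 with 126, the hexokinase Hk3 with 119, the pyruvate kinase Pkm with 107 and the lactate dehydrogenase Ldha with 105 CPM per kb. Gapdh, an enzyme known for very high mRNA levels in most cells, was at 1.60 CPM per kb in the same libraries. Of the Gapdh transcript, 94.2% is repeated at 97% or more identity in 49 other annotated genes. Its counts, and those of Eno1 (85.6% of the transcript repeated in 2 other genes), Ldhb (76.8% in 1), Pgk1 (68.8% in 3), Pgam1 (43.1% in 1), Gpi1 (36.3% in 1) and Tpi1 (19.3% in 1), are therefore uncertain, because reads that fit several places may have been dropped or split. The other 28 members had no such copy.

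After 3 h LPS, loss of Acly moved the list in both directions. Of the 35 members, 9 rose and 4 fell at an adjusted p-value under 0.05. The members that rose were 25.7% of the list, against 8.50% of all genes tested, and those that fell were 11.4%, against 6.91% of all genes. They rose by 0.17 to 0.54 on the log2 scale, with Aldoc, Tkt, Hk3, Slc2a6 and Pfkp at the top, and the falls were in Gapdh, Hk2, Slc16a3 and Tpi1. Shares of calls, here and below, were not matched for level. The median member had a higher level than the median gene tested (28.9 against 11.3 CPM), and the part of this in the shares was not tested. The changes were small: with edgeR, 0 members passed the threshold with a log2 fold change beyond 0.75, which 2.01% of all genes did, while 15 had an unadjusted p under 0.05, and DESeq2 also called 0 beyond that fold. The median log2 fold change was 0.03 over the members, with -0.014 without AclyM-KO 3 h replicate 2 and 0.069 without replicate 1, and so no fixed sign, and -0.01 over all genes tested. In 17 of the 35 members the 3 AclyM-KO libraries did not overlap the 3 controls (10 above, 7 below), against 30.1% of all genes. Gapdh is among them on 1.588 against 1.589 CPM in its nearest libraries. Because whole cultures were sequenced, fewer cells with a transcript and less of it per cell cannot be told apart here or below. The fall of Gapdh and the rises of Pkm and Taldo1 each lost the threshold in 2 to 9 of the 12 fits that left out 1 library, with adjusted p-values up to 0.216 over all alternatives.

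After 24 h LPS the balance was the other way. Here 4 members rose (11.4% of the list, against 8.32% of all genes) and 9 fell (25.7%, against 5.57%). Pfkfb3, Pdk3, Hk3 and Slc2a6 were higher in AclyM-KO cells by 0.18 to 0.47. Aldoc, Pdk1, Pfkl, Slc16a3, Tpi1, Tkt, Aldoa, Ldha and Gpi1 were lower. Aldoc was the 1 member past the log2 fold threshold of 0.75, and it passed only just; 1.38% of all genes did. The median was -0.11 over the members, or -0.050 without AclyM-KO 24 h replicate 1, and 0.01 over all genes tested. The libraries of the genotypes did not overlap in 20 of the 35 members (6 with AclyM-KO above, 14 below), against 33.1% of all genes. The calls on Slc2a6, Gpi1 and Ldha each lost the threshold in 2 to 8 of the 12 fits without 1 library, with adjusted p-values up to 0.368 over all alternatives.

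Across the times, 6 members passed the threshold at both. Hk3 and Slc2a6 were higher and Slc16a3 and Tpi1 lower at 3 h and at 24 h. Aldoc and Tkt were higher at 3 h and lower at 24 h. There were 7 members that passed the threshold at 3 h only (G6pdx, Gapdh, Hk2, Pfkp, Pgd, Pkm and Taldo1), 7 at 24 h only (Aldoa, Gpi1, Ldha, Pdk1, Pdk3, Pfkfb3 and Pfkl) and 15 at neither. How all genes tested divide among these classes was not counted, so they only describe the list. The difference between the 24 h and the 3 h effect was tested directly as an interaction. In 9 members the effect of the deletion was more negative at 24 h (25.7% of the list, against 4.66% of all genes), namely Aldoc, Tkt, Pdk1, Pfkl, Pgls, Pkm, Aldoa, Pfkp and Pgd. In Pfkfb3 and Hk2 it was more positive (5.71%, against 4.86%). The median interaction was -0.15 on the log2 scale over the members and 0.02 over all genes. The interactions of Aldoc, Tkt, Pfkl, Aldoa and Pfkfb3 passed in every alternative fit, whereas those of Hk2, Pfkp, Pkm, Pgls, Pgd and Pdk1 each missed the threshold in at least 1 of 19, with adjusted p-values up to 0.204 there.

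**Figure D1:**
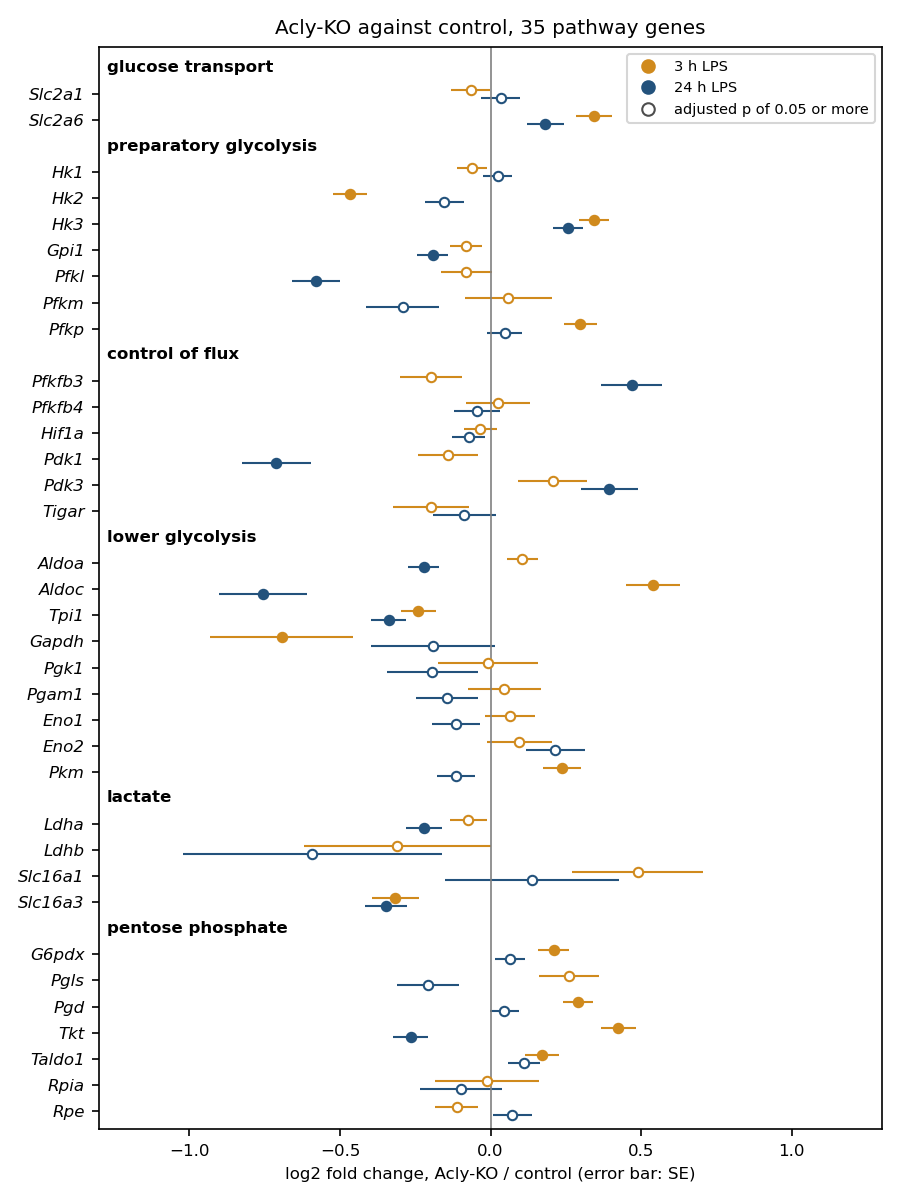
Log2 fold change (AclyM-KO over control) of the 35 genes, grouped by role, after 3 h (orange) and 24 h LPS (blue); the horizontal bar is the standard error and a filled point passed an adjusted p of 0.05. At 3 h 9 filled points lie above 0 and 4 below, at 24 h 4 above and 9 below, and Aldoc and Tkt change side.

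To show the DNA in front of members that turned on genotype, the 250 bases upstream of the start were read from RefSeq promoter windows on GRCm38.p6 for the 3 members that fell by more than 0.5 at 24 h, Aldoc, Pdk1 and Pfkl, and for Hk2, which fell at 3 h. Aldoc and Pdk1 have 2 windows each, and the first is shown. Sequences run 5′ to 3′ on the strand of the gene, and capitals mark the core that HIF-1 binds, searched as ACGTG and GCGTG on both strands, so that CACGT and CACGC are the same cores on the other strand and CACGTG holds a core on each.
Hk2, chr6:82774455-82774704, minus strand: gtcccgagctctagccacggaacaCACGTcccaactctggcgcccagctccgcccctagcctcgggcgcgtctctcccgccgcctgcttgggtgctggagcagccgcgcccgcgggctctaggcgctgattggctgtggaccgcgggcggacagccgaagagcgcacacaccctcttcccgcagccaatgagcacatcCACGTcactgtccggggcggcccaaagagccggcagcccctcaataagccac
Pfkl, chr10:78009808-78010057, minus strand: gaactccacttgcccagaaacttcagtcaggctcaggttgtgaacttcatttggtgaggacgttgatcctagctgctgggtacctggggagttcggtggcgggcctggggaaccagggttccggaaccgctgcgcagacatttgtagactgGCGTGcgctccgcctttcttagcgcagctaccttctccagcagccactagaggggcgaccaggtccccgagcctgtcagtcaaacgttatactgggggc
Aldoc, chr11:78322823-78323072, plus strand: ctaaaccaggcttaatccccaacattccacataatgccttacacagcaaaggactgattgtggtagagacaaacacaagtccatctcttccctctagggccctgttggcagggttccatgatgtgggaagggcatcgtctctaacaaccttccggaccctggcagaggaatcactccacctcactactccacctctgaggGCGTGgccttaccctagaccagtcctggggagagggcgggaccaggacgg
Pdk1, chr2:71872974-71873223, plus strand: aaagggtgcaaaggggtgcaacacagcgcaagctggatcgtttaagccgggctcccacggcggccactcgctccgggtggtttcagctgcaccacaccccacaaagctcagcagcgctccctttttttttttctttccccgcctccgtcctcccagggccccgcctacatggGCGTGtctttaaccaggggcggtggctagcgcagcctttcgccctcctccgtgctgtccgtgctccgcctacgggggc
The Hk2 window held 2 cores and each of the other windows shown held 1. Gapdh and Slc16a3, which also fell at 3 h and are not shown, held 2 cores each, and Tpi1 held 0. Of the windows not shown, the second of Aldoc held 1 core and the second of Pdk1 held 0. A core was present in 38 of the 49 windows of the members (77.6%). Counted by gene, it was in any window of 30 of the 35 members, against 41.5% of all 27025 genes with a window. Among all 32851 RefSeq windows 38.6% held one, and among the 12149 windows of tested genes 55.3%. Eno2, Gpi1, Rpe, Tigar and Tpi1 held none within these bases. A core of 5 letters is frequent, and its presence is a description of the window only.

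Glucose enters macrophages through facilitative transporters. Slc2a1, which encodes the general glucose transporter GLUT1, differed by -0.07 ± 0.07 at 3 h and 0.03 ± 0.06 at 24 h between genotypes, with adjusted p-values of 0.562 and 0.787. Slc2a6, which encodes GLUT6, a transporter found in intracellular membranes, was higher in AclyM-KO cells, at 372, 313 and 341 CPM against 278, 272 and 257 CPM in control cells after 3 h. These libraries did not overlap, and the log2 fold change was 0.34 ± 0.06 (adjusted p = 2.28e-04). At 24 h the difference was 0.18 ± 0.06, near the threshold (adjusted p = 0.0474).

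The hexokinases, which perform the first step of glycolysis, parted by isozyme. Hk2, the inducible form bound to mitochondria, was at 211, 221 and 203 CPM in control and 168, 143 and 149 CPM in AclyM-KO libraries after 3 h. All AclyM-KO libraries were lower, by 0.47 ± 0.06 on the log2 scale (log2 fold change -0.47, adjusted p = 7.01e-07). After 24 h Hk2 was at 36.0, 32.8 and 35.6 CPM in control and 30.3, 32.8 and 31.1 CPM in AclyM-KO libraries. That difference of -0.15 ± 0.06 missed the threshold (adjusted p = 0.111), and the interaction was 0.31 ± 0.09 (adjusted p = 0.0177). Hk3, an isozyme prominent in myeloid cells, rose with loss of Acly at both times, by 0.34 ± 0.05 (adjusted p = 1.15e-05) and 0.26 ± 0.05 (adjusted p = 4.28e-04). It was also the most abundant hexokinase per length. Of the summed hexokinase level per kilobase, Hk3 made up 61.3% ± 1.1 (SD, n = 3) in control and 70.5% ± 1.7 in AclyM-KO cells at 3 h, and 85.0% ± 0.2 and 87.2% ± 0.7 at 24 h. Hk2 made up 19.7% ± 0.3 and 13% ± 1.4 at 3 h. Hk1, the constitutive form, differed by less than 0.07 between genotypes in either direction. Gpi1, which converts glucose 6-phosphate to fructose 6-phosphate, fell at 24 h by 0.19 ± 0.05 on the log2 scale (log2 fold change -0.19, adjusted p = 0.0114). It shares 741 exonic bases with an RNA on the other strand, and whether tags were counted by strand is not given in the sources used here.

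Phosphofructokinase acts as a tetramer of liver, muscle and platelet type subunits. Pfkl, the liver type, was at 30.4, 28.7 and 29.0 CPM in control and 17.9, 21.5 and 19.5 CPM in AclyM-KO libraries after 24 h. The genotypes were apart, and the log2 fold change was -0.58 ± 0.08 (adjusted p = 4.55e-06). After 3 h Pfkl was at 23.7, 22.5 and 19.7 CPM in control and 19.1, 21.7 and 21.4 CPM in AclyM-KO libraries, which overlapped. The interaction was -0.50 ± 0.12 (adjusted p = 0.00502). Pfkp, the platelet type, went the other way at 3 h, with 102, 101 and 96.5 CPM in control and 121, 129 and 119 CPM in AclyM-KO libraries. That rise was 0.30 ± 0.05 (adjusted p = 2.44e-04). At 24 h Pfkp was at 34.8, 36.2 and 36.9 CPM in control and 35.3, 38.3 and 38.0 CPM in AclyM-KO libraries, which overlapped, and the interaction was -0.25 ± 0.08 (adjusted p = 0.0410). Pfkp shares 748 exonic bases with Pitrm1 on the other strand. Pfkm, the muscle type, did not pass between genotypes, with -0.29 ± 0.12 at 24 h (adjusted p = 0.109). Per kilobase, Pfkl took 33.5% ± 1.2 of the 3 genes' level in control and 25.1% ± 1.1 in AclyM-KO cells at 24 h.

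Fructose 2,6-bisphosphate, the strongest activator of phosphofructokinase, is made by the bifunctional enzymes encoded by the Pfkfb genes. Pfkfb3, whose product strongly favours synthesis, was at 137, 122 and 124 CPM in control and 133, 93.9 and 107 CPM in AclyM-KO libraries after 3 h, with overlap. After 24 h it was at 101, 108 and 111 CPM in control and 153, 138 and 151 CPM in AclyM-KO libraries, all of which were higher. The log2 fold changes were -0.20 ± 0.10 (adjusted p = 0.245) and 0.47 ± 0.10 (adjusted p = 0.00853). The interaction of 0.67 ± 0.14 (adjusted p = 0.0131) was the most positive of the list. Pfkfb4 differed by 0.03 ± 0.11 and -0.05 ± 0.08. Tigar, which encodes a phosphatase that degrades fructose 2,6-bisphosphate, differed by -0.20 ± 0.13 and -0.09 ± 0.10, with adjusted p-values of 0.327 and 0.641.

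**Figure D2:**
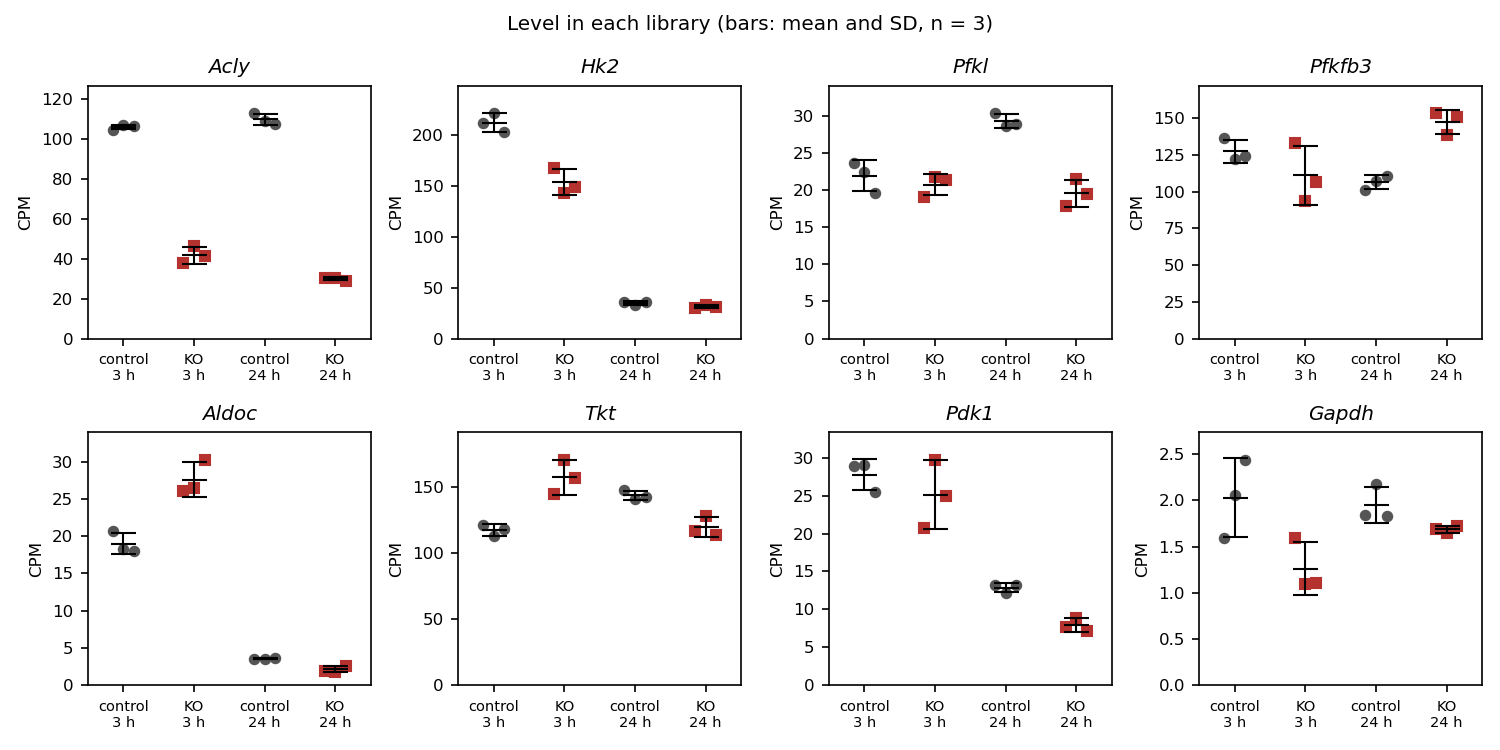
CPM of Acly and 7 members in each library, by genotype and duration of LPS, with the mean and SD of 3 libraries per group; each vertical axis starts at 0. Acly is lower in all AclyM-KO libraries, Aldoc and Tkt lie above the controls at 3 h and below them at 24 h, Pfkl and Pdk1 are apart at 24 h, and Gapdh stays under 2.5 CPM.

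The enzymes from aldolase to pyruvate kinase cleave the hexose and harvest its energy. Aldoc, the minor aldolase here, was at 20.7, 18.3 and 18 CPM in control and 26.0, 26.5 and 30.3 CPM in AclyM-KO libraries after 3 h. After 24 h it was at 3.53, 3.50 and 3.59 CPM in control and 1.92, 1.81 and 2.57 CPM in AclyM-KO libraries. The genotypes were apart at both times and in opposite directions, with log2 fold changes of 0.54 ± 0.09 (adjusted p = 6.33e-05) and -0.75 ± 0.15 (adjusted p = 4.73e-04). The interaction, -1.29 ± 0.17 (adjusted p = 4.88e-06), was the most negative of the list. Aldoa, which supplied 96.4% ± 0.2 of the aldolase level per kilobase in control cells at 3 h and 99.6% ± 0.025 at 24 h, was at 287, 279 and 277 CPM in control and 277, 318 and 312 CPM in AclyM-KO libraries after 3 h, with overlap. After 24 h it was at 527, 504 and 474 CPM in control and 433, 433 and 424 CPM in AclyM-KO libraries. All AclyM-KO libraries were lower at 24 h, by 0.22 ± 0.05 on the log2 scale (log2 fold change -0.22, adjusted p = 0.00310), and the interaction was -0.33 ± 0.07 (adjusted p = 0.00376). Tpi1, which interconverts the triose phosphates, was lower at both times, with log2 fold changes of -0.24 ± 0.06 (adjusted p = 0.00555) and -0.34 ± 0.06 (adjusted p = 1.00e-04).

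Pkm, which encodes the pyruvate kinase of these cells, was at 226, 212 and 218 CPM in control and 228, 289 and 256 CPM in AclyM-KO libraries after 3 h. The 2 groups nearly touched, with replicate 2 of AclyM-KO far above the others, and the log2 fold change was 0.24 ± 0.06 (adjusted p = 0.0108). Without that library, without control 3 h replicate 2, or with the 13th library added, the call was lost (0.152 to 0.239, adjusted p = 0.0511 to 0.0991). After 24 h Pkm was at 389.6, 385 and 398 CPM in control and 384, 340.0 and 359 CPM in AclyM-KO libraries, a difference of -0.11 ± 0.06 (adjusted p = 0.247). The interaction was -0.35 ± 0.09 (adjusted p = 0.0118). Pkm shares 767 exonic bases with the annotated gene Gm49759 on the same strand. Gapdh, which makes NADH in the middle of the pathway, was at 1.59, 2.06 and 2.44 CPM in control and 1.59, 1.09 and 1.11 CPM in AclyM-KO libraries after 3 h. The log2 fold change of -0.69 ± 0.24 just passed (adjusted p = 0.0457), at levels of about 1 to 2 CPM. After 24 h Gapdh was at 1.85, 2.17 and 1.83 CPM in control and 1.69, 1.65 and 1.73 CPM in AclyM-KO libraries, and the difference of -0.19 ± 0.20 did not pass (adjusted p = 0.598). Pgk1, Pgam1, Eno1 and Eno2 lay between -0.19 and 0.22 at either time and passed at neither.

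Pyruvate is reduced to lactate and exported, or enters the mitochondria through pyruvate dehydrogenase, which the Pdk kinases switch off. Ldha, the lactate dehydrogenase subunit that favours lactate, fell at 24 h by 0.22 ± 0.06 on the log2 scale (log2 fold change -0.22, adjusted p = 0.0123). Slc16a3, which encodes the lactate exporter MCT4, was lower in AclyM-KO cells at both times, with log2 fold changes of -0.32 ± 0.08 (adjusted p = 0.00466) and -0.35 ± 0.07 (adjusted p = 7.89e-04). Slc16a1, for the transporter MCT1, varied widely among the AclyM-KO libraries at 3 h, from 11.8 to 20.5 CPM, and passed at neither time, and Ldhb was under 1.40 CPM in every library. Pdk1, a HIF-1 target, was at 13.2, 12.2 and 13.2 CPM in control and 7.70, 8.89 and 7.10 CPM in AclyM-KO libraries after 24 h. The genotypes were apart, and the log2 fold change was -0.71 ± 0.11 (adjusted p = 9.61e-05). After 3 h Pdk1 was at 28.9, 29.1 and 25.4 CPM in control and 20.7, 29.8 and 24.9 CPM in AclyM-KO libraries, with overlap. The interaction was -0.57 ± 0.15 (adjusted p = 0.0175). Pdk3 moved in the opposite direction at 24 h, by 0.39 ± 0.09 (adjusted p = 0.00409). Of the summed Pdk1 and Pdk3 level per kilobase, Pdk1 thus took 32.7% ± 3.1 in control and 18.3% ± 1.1 in AclyM-KO cells at 24 h, and 60.6% ± 3.8 and 54.5% ± 3.3 at 3 h. Hif1a itself, at 95.8 to 189 CPM over all libraries, differed by -0.03 ± 0.05 at 3 h and -0.07 ± 0.06 at 24 h, with adjusted p-values of 0.735 and 0.431.

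**Figure D3:**
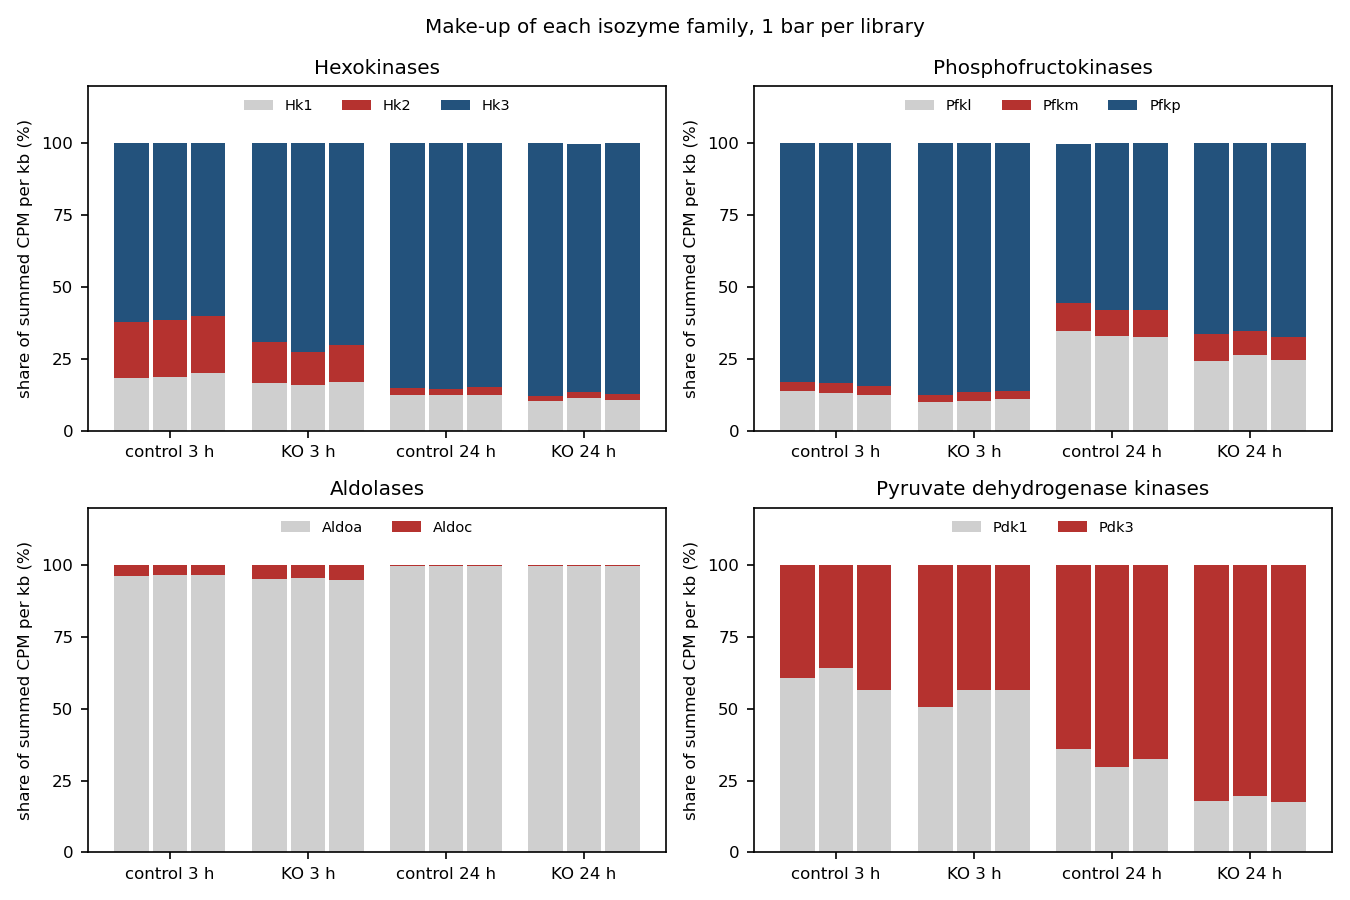
Share of each isozyme in the summed CPM per kilobase of the listed members of its family, 1 bar per library, for hexokinases, phosphofructokinases, aldolases and pyruvate dehydrogenase kinases. For the kinases only Pdk1 and Pdk3 are counted, without Pdk2. The Hk2 share falls from 3 h to 24 h and is smaller in AclyM-KO libraries at 3 h, and at 24 h the Pfkl and Pdk1 shares are smaller in AclyM-KO libraries.

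In the pentose phosphate pathway, 4 of 7 members rose at 3 h in AclyM-KO cells (8.50% of all genes did) and 1 fell at 24 h (5.57% of all genes). G6pdx, which encodes the rate-limiting dehydrogenase, was at 84.8, 87.4 and 92.8 CPM in control and 104, 97.4 and 106 CPM in AclyM-KO libraries after 3 h, and at 285, 288 and 278 against 294, 292 and 304 CPM after 24 h. All AclyM-KO libraries were higher at both times, but only the 3 h difference of 0.21 ± 0.05 passed (adjusted p = 0.00517), against 0.06 ± 0.05 at 24 h (adjusted p = 0.424). The interaction of -0.15 ± 0.07 did not pass (adjusted p = 0.212), so the effects at the 2 times were not shown to differ. G6pdx shares 418 exonic bases with Ikbkg on the other strand. Pgd, the second NADPH-producing dehydrogenase, was at 129, 125 and 137 CPM in control and 153, 158 and 165 CPM in AclyM-KO libraries after 3 h. After 24 h it was at 342, 338 and 349 CPM in control and 360.3, 356 and 345 CPM in AclyM-KO libraries. The libraries were apart at 3 h and overlapped at 24 h, with an effect of 0.29 ± 0.05 (adjusted p = 1.24e-04) that shrank to 0.05 ± 0.05, and an interaction of -0.24 ± 0.07 (adjusted p = 0.0221). Pgls, the lactonase between these enzymes, was at 11.9, 12.5 and 11.2 CPM in control and 13.7, 13.3 and 15.7 CPM in AclyM-KO libraries after 3 h. After 24 h it was at 8.90, 8.83 and 8.83 CPM in control and 6.87, 7.32 and 8.79 CPM in AclyM-KO libraries. Neither difference passed (adjusted p = 0.0796 and 0.196), while the interaction of -0.47 ± 0.14 did (adjusted p = 0.0355). Pgls shares 776 exonic bases with Fam129c on the same strand.

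The non-oxidative arm held the interaction with the smallest p-value of the list. Tkt, for transketolase, was at 121, 113 and 118 CPM in control and 145, 171 and 156 CPM in AclyM-KO libraries after 3 h. After 24 h it was at 148, 141 and 142 CPM in control and 117, 128 and 114 CPM in AclyM-KO libraries. The genotypes were apart at both times, above at 3 h and below at 24 h. The log2 fold changes were 0.42 ± 0.06 (adjusted p = 5.19e-06) and -0.27 ± 0.06 (adjusted p = 0.00157), with an interaction of -0.69 ± 0.08 (adjusted p = 8.31e-07). Taldo1, for transaldolase, was at 65.5, 62.2 and 59.6 CPM in control and 69.6, 66.8 and 74.7 CPM in AclyM-KO libraries after 3 h, and at 113, 115 and 121 against 126, 122 and 129 CPM after 24 h. Its AclyM-KO libraries were above the controls at both times, by 0.17 ± 0.06 (adjusted p = 0.0378) and 0.11 ± 0.05 (adjusted p = 0.179). Rpia and Rpe, which interconvert the pentose phosphates, lay between -0.11 and 0.07 and passed at neither time.

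Between 3 h and 24 h of LPS most of the pathway changed in both genotypes. In control cells 17 members were higher at 24 h (48.6%, against 38.9% of all genes) and 12 lower (34.3%, against 36.0%), and in AclyM-KO cells 16 were higher (45.7%, against 39.4%) and 13 lower (37.1%, against 36.3%). These shares are near those of all genes. Past the log2 fold threshold of 0.75 were 16 members in control cells, 8 in each direction, and 15 in AclyM-KO cells, against 40.4% and 41.9% of all genes. The median change was 0.16 in control and 0.20 in AclyM-KO cells, against 0.04 over all genes in both. For time, 74.9% of all genes passed in control and 75.7% in AclyM-KO cells, and the share passing in both was not counted. In 27 members the time difference passed in both genotypes, 25 of them in the same direction. The exceptions were Pfkfb3, which fell by 0.26 ± 0.10 in control (log2 fold change -0.26, adjusted p = 0.0366) and rose by 0.41 ± 0.10 in AclyM-KO cells (adjusted p = 0.00289), and Tkt, which rose by 0.29 ± 0.06 in control (adjusted p = 4.24e-05) and fell by 0.40 ± 0.06 in AclyM-KO cells (log2 fold change -0.40, adjusted p = 3.56e-07). Without 1 of 5 single libraries (control 24 h replicates 2 or 3 or any 3 h control) the fall of Pfkfb3 in control cells missed the threshold, with -0.195 to -0.278 and adjusted p-values of 0.0522 to 0.127. Gapdh, Pgk1, Eno1 and Ldha passed in neither genotype.

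The largest rises from 3 h to 24 h in control cells were those of G6pdx, Pfkfb4, Pgd and Taldo1. G6pdx rose by 1.68 ± 0.05 on the log2 scale (adjusted p = 3.35e-23) and Pgd by 1.40 ± 0.05 (adjusted p = 2.02e-21), with the library values given above. Taldo1 rose by 0.90 ± 0.06 (adjusted p = 2.34e-15). Pfkfb4 was at 6.85, 6.97 and 6.63 CPM in control libraries after 3 h and 19.0, 20.6 and 18.2 CPM after 24 h, and at 6.51, 7.30 and 6.97 against 18.3, 19.1 and 18.3 CPM in AclyM-KO libraries. The times were far apart and the genotypes overlapped, with rises of 1.49 ± 0.09 and 1.42 ± 0.09. The falls were led by Hk2, with -2.60 ± 0.06 in control (adjusted p = 6.20e-26) and -2.29 ± 0.06 in AclyM-KO cells, and by Aldoc, with -2.42 ± 0.11 (adjusted p = 4.88e-19) and -3.71 ± 0.12. Slc16a1 was at 12.9, 11.2 and 7.88 CPM in control libraries after 3 h and 2.54, 3.20 and 3.12 CPM after 24 h, and at 11.8, 20.5 and 12.3 against 3.12, 3.18 and 3.57 CPM in AclyM-KO libraries. All 24 h libraries were lower, with -1.83 ± 0.25 (adjusted p = 3.23e-05) and -2.18 ± 0.25. Ldhb, the lactate dehydrogenase subunit of oxidative tissues, was at 1.34, 1.22 and 1.40 CPM in control libraries after 3 h and 0.41, 0.68 and 0.32 CPM after 24 h, and at 1.28, 1.09 and 0.82 against 0.38, 0.12 and 0.35 CPM in AclyM-KO libraries. The falls of -1.61 ± 0.33 and -1.89 ± 0.39 thus rest on low counts and on a transcript with a near-identical copy.

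Among the remaining time differences, Pfkp, with -1.47 ± 0.06 in control and -1.72 ± 0.06 in AclyM-KO cells, and Pdk1, with -1.11 ± 0.10 and -1.68 ± 0.11, fell beyond the threshold, as did Slc2a6 and Hif1a, with -0.83 ± 0.06 and -0.76 ± 0.06 in control. Hk3, Pkm, Aldoa and Rpia rose in control cells by 0.81 to 0.86. Pkm and Aldoa rose less in AclyM-KO cells, by 0.49 ± 0.06 and 0.51 ± 0.05, which is the interaction given above seen from the other side. Pfkl rose by 0.42 ± 0.08 in control cells (adjusted p = 2.72e-05) and not in AclyM-KO cells (-0.08 ± 0.08, adjusted p = 0.372), a difference that passed as an interaction, whereas Pfkm rose in control cells by 0.60 ± 0.13 but its interaction did not pass (adjusted p = 0.261).

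**Figure D4:**
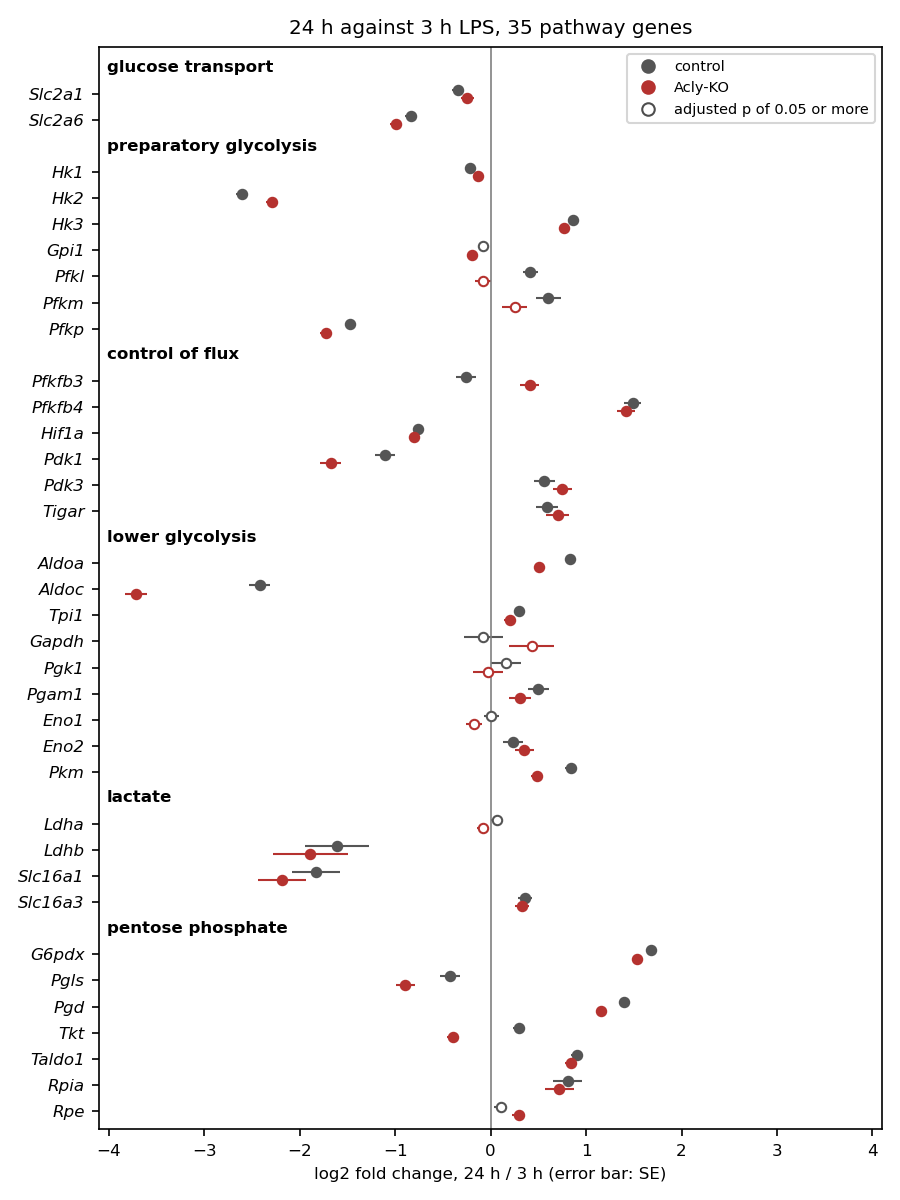
Log2 fold change from 3 h to 24 h LPS of the 35 genes, grouped by role, in control (grey) and AclyM-KO cells (red); the horizontal bar is the standard error and a filled point passed an adjusted p of 0.05. G6pdx, Pfkfb4 and Pgd rise most and Hk2 and Aldoc fall most in control cells, and Pfkfb3 and Tkt have their points on opposite sides of 0.

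Genes around the pathway were counted in 3 further lists. Of 44 other enzymes, transporters and regulators of glucose and pyruvate use, 32 passed the filter, of which 2 rose at 3 h and 3 fell at 24 h in AclyM-KO cells, with 2 negative interactions. Of 10 regulators of HIF-1, 1 rose at 3 h and 1 rose and 1 fell at 24 h, with 2 positive interactions and 1 negative. Of 14 HIF-1 targets outside glycolysis, 4 rose and 1 fell at 3 h and 2 rose at 24 h, with 2 positive interactions. Over all genes tested, 8.50% rose and 6.91% fell at 3 h, 8.32% rose and 5.57% fell at 24 h, and 4.86% had a positive and 4.66% a negative interaction. Past both the adjusted p and a log2 interaction of 0.75 were Pdp2, a pyruvate dehydrogenase phosphatase, with -0.85 ± 0.17 (adjusted p = 0.00110), and Epas1, which encodes HIF-2α, with -1.30 ± 0.34 (adjusted p = 0.0138). At 24 h Epas1 was at only 0.733 to 0.938 CPM in control and 0.523 to 0.576 CPM in AclyM-KO libraries. Its genotype difference at 24 h did not pass (adjusted p = 0.205, edgeR), so its interaction rests partly on low counts. Between genotypes at 3 h or 24 h, the only gene of these lists past both the adjusted p and the fold threshold of 0.75 was Nos2, which encodes the inducible nitric oxide synthase. Some genes at low levels were beyond 0.75 without passing the adjusted p. Nos2 was at 242, 215 and 234 CPM in control and 308, 325 and 303 CPM in AclyM-KO libraries after 3 h, and at 291, 311 and 287 against 589, 539 and 539 CPM after 24 h. All AclyM-KO libraries were higher, by 0.44 ± 0.05 (adjusted p = 6.78e-07) and 0.91 ± 0.05 (adjusted p = 2.03e-13), with an interaction of 0.47 ± 0.07 (adjusted p = 8.31e-05).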

How the data were processed

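RNA-seq libraries of BMDMs were assigned to genotype, duration of LPS and replicate from their labels. The authors made strand-specific mRNA libraries, base-called with CASAVA 1.8.2 per the processing notes, aligned reads to mm10 with STAR 2.5.2b and counted tags on 35745 RefSeq transcripts using HOMER. They deposited raw counts, which no one had normalized. The strand and multi-mapping settings of the counting are not given in the sources used here. Of the transcripts, 35628 were matched to a symbol through RefSeq and GENCODE tables of GRCm38, and the 117 without one (1.13% of counts) stayed in the library sizes. A gene with several transcripts enters the totals once per transcript, so CPM are shares of summed transcript counts.

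Tests used edgeR 4.0.16 in R 4.3.3 (TMM, filterByExpr, robust quasi-likelihood F tests) on 12 libraries in 1 fit with 4 groups. Benjamini-Hochberg adjustment ran over the 19621 transcripts tested, and a call is an adjusted p under 0.05. SE is the log2 fold change over the root of F. The fold threshold of 0.75 comes from the study's methods, in which DESeq2 was used. DESeq2 1.42.0 was 1 of the alternatives, with other size factors, filters, library sets, 1 transcript per gene, a replicate block and each library left out. Fits were tested on simulated data. Libraries of 1 group differed by 2.45 to 11.7 times sampling noise (chi-square per degree of freedom), so none was another library sequenced again. Separate libraries from 1 culture or animal can also exceed sampling noise, so a shared source cannot be told from this. Depth limits members under 3 CPM most.

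The members and lists were chosen with earlier results of these data known. Library values were printed for Acly, for members that changed with genotype by more than 0.5 or in the interaction, and for the 4 largest rises and falls over time in control cells. From the other lists, genes past the adjusted p and 0.75 for genotype at 3 h or 24 h were named, and Pdp2 and Epas1 after their interactions were seen. Library values of Slc2a6, and the genes named by range, were added for description.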

Additional observations from a re-analysis of the deposited data

Results flagged for a closer look

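In 11 members the effect of the deletion differed between 24 h and 3 h of LPS when the difference itself was tested (edgeR, adjusted p under 0.05). On the log2 scale the 24 h effect minus the 3 h effect was -1.2942 for Aldoc, -0.6896 for Tkt, -0.5711 for Pdk1, -0.5001 for Pfkl, -0.4672 for Pgls, -0.3531 for Pkm, -0.3278 for Aldoa, -0.2522 for Pfkp and -0.2445 for Pgd. It was 0.6670 for Pfkfb3 and 0.3134 for Hk2. Of these, 5 kept the call under every alternative fit.

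The library left out of all comparisons, control 24 h replicate 1, held 116 counts of the members in 34467 counts, and 11 members had none. There 3 members lay above the other 24 h controls by exact 95% Poisson intervals. These intervals cover counting error only, not scaling or the spread between cultures, and were not adjusted for the 35 members. Slc2a6 was at 380.9 CPM from 17 counts (222 to 610, against 144 to 166 in the other controls), Hif1a at 313.7 CPM from 14 counts (172 to 526, against 104 to 117) and Aldoc at 44.82 CPM from 2 counts (5.43 to 162, against 3.57 to 3.67). All 3 were also higher at 3 h than at 24 h in the other control libraries. In the other direction, the intervals of Hk3 (11 counts, 123 to 441 CPM), Aldoa (11 counts, 123 to 441), Pkm (4 counts, 24.4 to 229.5), G6pdx (4 counts, 24.4 to 229.5) and Pgd (3 counts, 13.9 to 196.5) lay wholly below the other 24 h controls, which held 702 to 718, 484 to 538, 393 to 406, 284 to 294 and 345 to 356 CPM. These 5 were lower at 3 h than at 24 h in the other control libraries. Hk2, from 2 counts, went the other way. Its interval of 5.43 to 162 CPM held the other 24 h controls (33.5 to 36.8) and lay wholly below the 3 h controls (207 to 226). Groups of 3 libraries were not searched for outlying values.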

How the results depend on the processing

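The members' median for genotype at 3 h changed sign, but no call turned its direction under the alternatives run. Over them 10 of 13 calls at 3 h, 10 of 13 at 24 h, 5 of 11 interactions, 27 of 29 time differences in control and 26 of 29 in AclyM-KO cells were kept throughout. Calls were lost by Gapdh (in 13 of 20 alternatives, log2 fold change -0.695 to -0.54 there), Pkm (3) and Taldo1 (7) at 3 h; by Slc2a6 (13), Gpi1 (2) and Ldha (3) at 24 h; by the interactions of Pfkp and Pgls (9 of 19 each), Hk2 and Pgd (5 each), Pdk1 (3) and Pkm (2); and by the time differences of Eno2 (10) and Pfkfb3 (5) in control and Pgam1 (2), Hk1 and Tpi1 (1 each) in AclyM-KO cells. Adjusted p-values in these cases reached 0.05 to 0.368; beyond the construction of the alternatives, the cause was not tested. Without 1 library, the members past both thresholds numbered 0 to 1 at 3 h (1, Gapdh, without replicate 1 of either genotype, at -0.879 and -0.836) and 0 to 1 at 24 h (0 without AclyM-KO replicate 1 or control replicate 4, where Aldoc was at -0.690 and -0.740). The members' median without 1 library was -0.132 to -0.050 for genotype at 24 h, the latter without AclyM-KO replicate 1, and 0.120 to 0.236 for time in AclyM-KO cells, without 3 h replicates 1 and 2. The latter median was 0.170 with DESeq2 size factors, 0.170 with DESeq2 and 0.233 with at least 10 counts in every library. The genotype median at 3 h lay between -0.014 and 0.069 and so has no fixed sign. At a log2 fold threshold of 1, 0 members passed for genotype at 24 h and 9 in each genotype for time. Over all groups, the correlation of deviations was -0.028 to 0.066 for the same replicate number and -0.07 to 0.082 for different numbers. Between 3 h and 24 h AclyM-KO libraries it was 0.0283 to 0.0491 for the same number and -0.0378 to -0.011 for different numbers. For the same number in control libraries it was -0.0158 and 0.007. For different numbers in control libraries it was -0.0598 to 0.0825. The highest value, 0.0825, was between control 24 h replicate 4 and control 3 h replicate 1. Replicate numbers need not mark a shared source, and control 24 h replicate 4 stood alone in its level of the replicate block. Whether samples of the 2 times were paired was not tested, and the main fit treats them as unpaired. With replicate numbers as a block, 7 interactions passed, 0 members were past both thresholds at 24 h (edgeR, with 11 past the adjusted p), and 13 passed at 3 h. Gapdh, Slc2a6, Ldha, Pfkp, Pkm, Pgls, Pgd and Eno2 were the calls lost under the block.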
